A study of Rattus norvegicus with 4 samples.

Results

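A set of 10 genes of the LIN28 and let-7 axis and of the oncofetal RNA-binding protein families was followed in rat embryoid bodies that lacked Kcnh2 and in their wild-type counterparts. The genes are Lin28a, Lin28b, Trim71, Igf2bp1, Igf2bp2, Igf2bp3, Mex3a, Mex3b, Hmga1 and Hmga2. They were picked by symbol and make up 10 of the 32753 genes in the files, each on a single row. Embryoid bodies are the cell aggregates that pluripotent cells form as they begin to differentiate. The groups were Kcnh2-/- and wild-type (WT) rat embryonic stem cells of the strain labelled DASD, both taken to day 4 of differentiation, with 2 libraries each. Kcnh2 encodes the voltage-gated potassium channel ERG1. Both groups were aggregated in hanging drops with the GSK3 inhibitor CHIR9902 (as the labels spell it), the MEK inhibitor PD0325901 and the ROCK inhibitor Y27632, then plated on laminin with the first and second of these agents before a day in fresh medium named DM. The labels do not say how Kcnh2 was disrupted, how many clones each genotype stands for, or whether replicates came from separate cultures.

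LIN28A and LIN28B are RNA-binding proteins of early embryos with a cold shock domain and CCHC zinc knuckles. They hold back the let-7 family of microRNAs by binding the loop of its precursors, where LIN28A recruits the uridylating enzymes TUT4 and TUT7 and the tagged precursor is degraded by DIS3L2. Mature let-7 in turn lowers LIN28A, LIN28B, TRIM71, the IGF2BP proteins and HMGA2, so that the axis works as a switch between embryonic and later programmes. HMGA1 and HMGA2 are chromatin proteins that bind AT-rich DNA, not RNA-binding proteins in the usual sense, and stand here as genes of the same oncofetal programme.

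The sequences on which this switch turns are shown first, as RefSeq gives them for the rat (build GRCr8). All 8 let-7 5p names in the table of mature microRNAs share the seed GAGGUAG, bases 2 to 8, printed in capitals, and 1 other of the 693 mature names, miR-98, carries it too. Let-7a, let-7d, let-7e, let-7g and miR-98 are shown to give the constant seed beside the varying tail.
rno-let-7a-5p: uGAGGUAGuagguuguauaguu
rno-let-7d-5p: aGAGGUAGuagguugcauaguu
rno-let-7e-5p: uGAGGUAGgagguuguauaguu
rno-let-7g-5p: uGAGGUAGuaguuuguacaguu
rno-miR-98-5p: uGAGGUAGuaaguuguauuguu
The letters GGAG, which the zinc knuckles of LIN28 are known to bind, were found in 9 of the 10 let-7 hairpins that hold that seed (90.0%) and in 172 of all 419 hairpins in the table (41.1%), on the hairpin strand alone. Another entry with a let-7 name, Mirlet7f-1, lies on the strand opposite to the mature let-7f and was left out. A hairpin with the letters, from chr8:115701020-115701107 (plus strand), and a hairpin without them, from chr7:118683623-118683717 (plus strand), are shown with GGAG in capitals.
Mirlet7g: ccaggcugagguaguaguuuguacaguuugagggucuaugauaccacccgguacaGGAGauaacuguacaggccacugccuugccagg
Mirlet7c2: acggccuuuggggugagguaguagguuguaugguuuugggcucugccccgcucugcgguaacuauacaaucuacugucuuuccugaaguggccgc
The deposited tables hold 9 loci whose symbol starts with Mirlet7, and all 9 are listed at 0 RPKM in all 4 libraries. RPKM is the read number scaled by transcript length and by the mapped reads of the library. An exact 0 in such files can be a failed estimate for a short locus, so these rows say nothing of the level of let-7 in the cells.

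Kcnh2 itself was at 0.108 and 0.504 RPKM in Kcnh2-/- replicates 1 and 2, against 2.61 and 1.45 RPKM in WT replicates 1 and 2. Across the libraries, 17610 to 17833 genes were above 0, absolute read depth is unknown, and RPKM sums were 1.09e+08 and 7.95e+07 in the replicate 1 libraries of Kcnh2-/- and WT and 8.93e+06 and 1.17e+07 in their replicate 2 libraries. Because libraries of the same number shared that property, differences within each number are given beside the pooled ones. The labels name no batch. A limma fit covered the 12355 genes that reached 1 RPKM in 2 or more of the libraries. It called 14 (0.113%) at an adjusted p under 0.05, with 4 (0.0324%) higher and 10 (0.0809%) lower in Kcnh2-/-. The p-values measure only the spread between these samples, which may be technical.

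Most of these genes were abundant, and 6 of the 10 averaged above 50 RPKM over the 4 libraries. Of the 10, 8 passed the filter, and Mex3b and Hmga2, which were at 1 RPKM or more in WT replicate 1 alone, did not. Since the genes were chosen with values of this contrast known, their differences are given as a description. None of the 8 was called by limma, against 0.113% of all genes tested (0.0324% higher and 0.0809% lower). Of the 8, 1 (Mex3a) was at an unadjusted p under 0.05, against 3.38% of all. Given that choice, neither count is a test of these genes. Of the 10, 4 were lower and 1 was higher in both Kcnh2-/- libraries than in either WT library. The same held for 3 lower and 1 higher of the 8 that passed, while 15.3% of all genes tested were lower and 16.7% higher in that way. RPKM is per unit of RNA, so fewer cells of a type and less RNA per cell cannot be told apart.

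**Figure D1:**
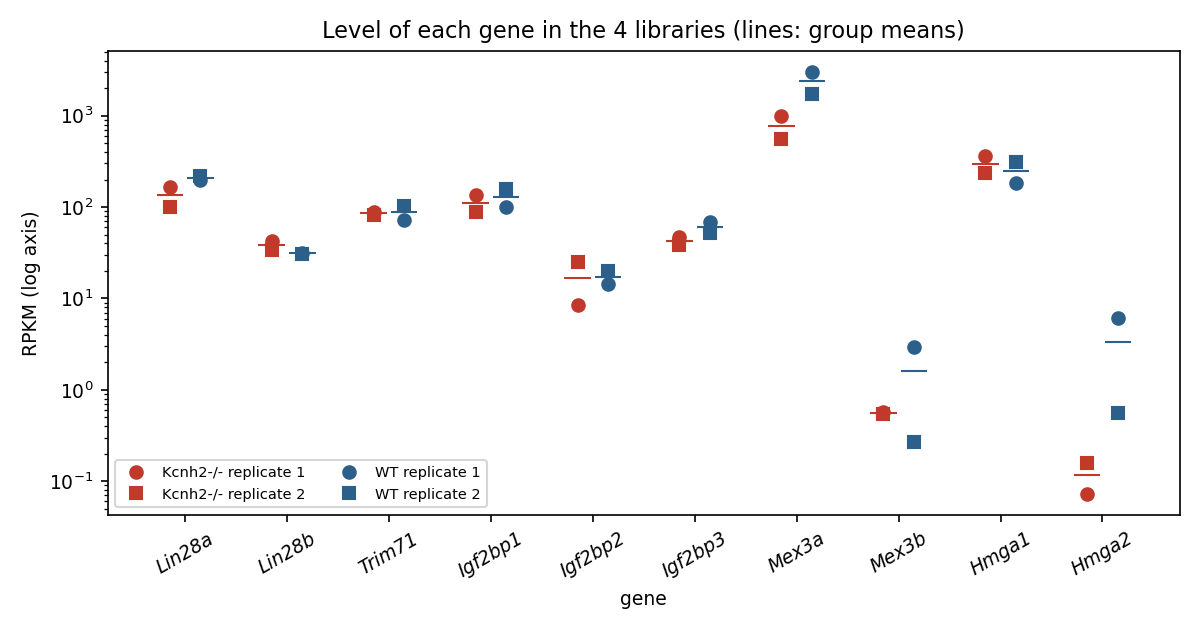
RPKM of each gene on a log axis in Kcnh2-/- libraries (red, left) and WT libraries (blue, right), with circles for replicate 1, squares for replicate 2 and a line at each group mean. Mex3a lay at 550 to 998 RPKM in Kcnh2-/- and at 1748 to 3021 RPKM in WT, while Mex3b and Hmga2 lay at or under 0.572 RPKM in both Kcnh2-/- libraries.

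The group means of the LIN28 pair differed in opposite directions, and limma called neither gene. Lin28a (rn6, chromosome 5, 152230342 to 152247332), the form that predominates in pluripotent cells, was at 168 and 101 RPKM in Kcnh2-/- replicates 1 and 2, against 196 and 220 RPKM in WT replicates 1 and 2. The groups did not overlap, and the lowest library was Kcnh2-/- replicate 2. The mean was 134 ± 47.3 RPKM in Kcnh2-/- and 208 ± 17.2 RPKM in WT (SD, n = 2 each). On the log2(RPKM + 1) scale the difference was -0.67 ± 0.35 (SE), with -0.22 within replicate 1 and -1.12 within replicate 2. It was -0.31 without Kcnh2-/- replicate 2 and -1.04 without Kcnh2-/- replicate 1, so its size rested on which Kcnh2-/- library was kept.

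Lin28b (rn6, chromosome 20, 50486808 to 50564987), its paralog, was at 42.6 and 33.7 RPKM in Kcnh2-/- replicates 1 and 2, against 31.8 and 30.5 RPKM in WT replicates 1 and 2. Both Kcnh2-/- libraries were above both WT libraries, by a small margin for replicate 2. On that scale the difference was 0.28 ± 0.26 (SE), about the size of its error, with 0.41 within replicate 1 and 0.14 within replicate 2. It was 0.11 without Kcnh2-/- replicate 1 and 0.44 without Kcnh2-/- replicate 2. After quantile normalization the groups overlapped, at a difference of 0.21.

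The ratio of Lin28b to Lin28a within a library does not depend on how the library was scaled by a factor. It was 0.254 and 0.334 in Kcnh2-/- replicates 1 and 2, against 0.162 and 0.138 in WT replicates 1 and 2. Lin28b thus made up 20.3% and 25.1% of the summed RPKM of the pair in Kcnh2-/-, against 14.0% and 12.2% in WT. With Lin28a lower and Lin28b higher without overlap, the ratio and this share had to separate the groups, so they add no support. Lin28a was the more abundant of the pair in all 4 libraries. The summed RPKM of the pair was 210 and 134 in Kcnh2-/-, against 228 and 250.5 in WT.

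**Figure D2:**
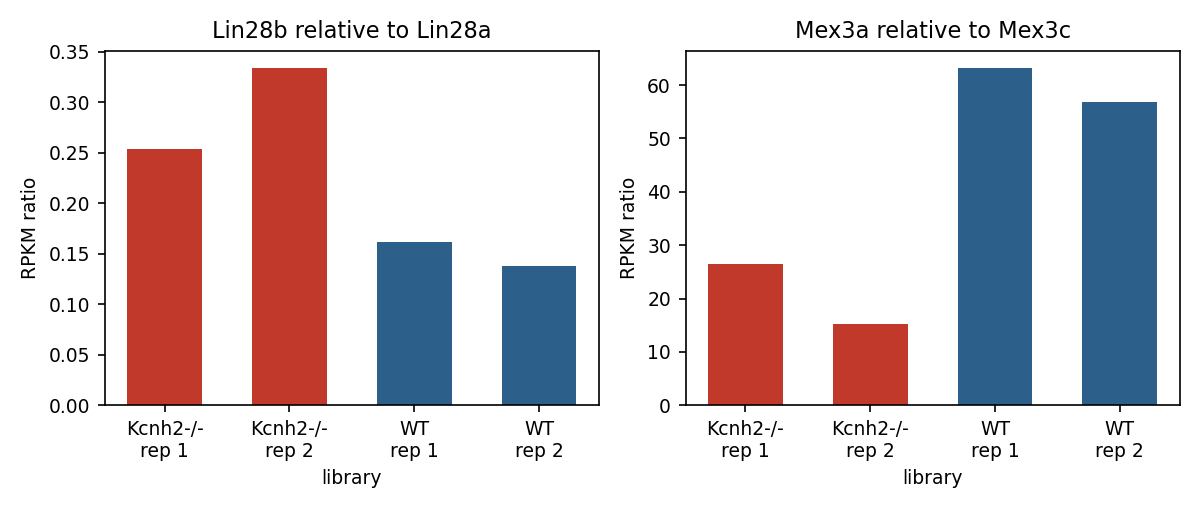
RPKM ratio of Lin28b to Lin28a (left) and of Mex3a to Mex3c (right), with 1 bar per library, Kcnh2-/- in red and WT in blue. The Lin28b to Lin28a ratio was 0.254 and 0.334 in Kcnh2-/- and 0.162 and 0.138 in WT, and the Mex3a to Mex3c ratio was 26.5 and 15.3 in Kcnh2-/- and 63.3 and 56.9 in WT.

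The 300 bases around the annotated starts of Lin28a and Lin28b, 250 before and 50 after, are printed because these paralogs stood on opposite sides of the comparison, with that of Mex3a, which had the largest difference of the 8 followed genes that passed the filter. CG dinucleotides are in capitals. They come from RefSeq (GRCr8), at chr5:151527835-151528134 (minus strand), chr20:50532452-50532751 (minus strand) and chr2:176287650-176287949 (plus strand).
Lin28a: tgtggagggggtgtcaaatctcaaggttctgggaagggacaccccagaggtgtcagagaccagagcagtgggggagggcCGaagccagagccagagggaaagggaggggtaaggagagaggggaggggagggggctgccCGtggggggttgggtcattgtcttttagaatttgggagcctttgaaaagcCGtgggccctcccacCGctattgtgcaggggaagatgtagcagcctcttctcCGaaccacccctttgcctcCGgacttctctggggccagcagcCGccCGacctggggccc
Lin28b: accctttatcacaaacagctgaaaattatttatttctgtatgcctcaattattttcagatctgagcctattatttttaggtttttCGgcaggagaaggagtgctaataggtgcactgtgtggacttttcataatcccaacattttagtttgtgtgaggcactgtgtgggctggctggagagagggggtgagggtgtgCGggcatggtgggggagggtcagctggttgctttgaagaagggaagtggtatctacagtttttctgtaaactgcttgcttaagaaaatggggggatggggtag
Mex3a: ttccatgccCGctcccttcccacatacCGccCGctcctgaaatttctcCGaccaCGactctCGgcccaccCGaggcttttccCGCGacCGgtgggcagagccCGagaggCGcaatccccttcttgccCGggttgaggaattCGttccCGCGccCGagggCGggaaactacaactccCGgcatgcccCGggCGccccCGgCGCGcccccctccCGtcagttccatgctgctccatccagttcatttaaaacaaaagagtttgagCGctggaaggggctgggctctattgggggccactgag
Of the 10 genes, 9 matched a promoter in the table (all but Igf2bp1). Lin28b held 2 CG dinucleotides, Lin28a held 8 and Mex3a held 26, where the median of all 27455 promoters was 7. The other 6 held between 10 (Hmga2) and 46 (Igf2bp2), so that 8 of the 9 were above that median. The GC box letters GGGCGG were in 7 of the 9, all but Lin28b and Hmga2, against 34.9% of all promoters. Every motif was searched on both strands. The CCAAT box letters CCAAT were in Hmga1, Mex3a and Mex3b, 3 of the 9, against 37.7% of all. Neither the TATA box letters TATAAA (14.3% of all) nor the TCF/LEF letters CTTTGAT (3.62% of all) were in any of the 9. The POU octamer letters ATTTGCAT were in Hmga1 alone (1.64% of all). The ZNF143 element, the long motif that this zinc finger factor is known to bind, was in the Mex3a window and in 10 of the 27455 promoters (0.0364%). The match in Mex3a begins 85 bases before the start. This element was chosen after the Mex3a sequence had been read. These matches are descriptions of letters and do not show binding.

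Trim71 (rn6, chromosome 8, 122553014 to 122604787) encodes the rat LIN-41, an E3 ubiquitin ligase with an NHL domain that binds RNA, and is a classic let-7 target. It was at 88.9 and 81.4 RPKM in Kcnh2-/- replicates 1 and 2, against 72.7 and 102 RPKM in WT replicates 1 and 2. The Kcnh2-/- values lay between the WT values. On the log2(RPKM + 1) scale the difference was -0.0165 ± 0.28 (SE), with 0.29 within replicate 1 and -0.32 within replicate 2.

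The IGF2BP proteins bind target mRNAs through KH and RRM domains and are known for stabilizing and localizing them. Igf2bp1 (rn6, chromosome 10, 83780145 to 83822996) was at 135 and 89.0 RPKM in Kcnh2-/- replicates 1 and 2, against 99.0 and 156 RPKM in WT replicates 1 and 2. The groups overlapped, and the direction differed by number, with a log2 difference of 0.44 within replicate 1 and -0.80 within replicate 2. Igf2bp2 (rn6, chromosome 11, 82466070 to 82621079) was the least abundant of the family, at 8.52 and 25.1 RPKM in Kcnh2-/-, against 14.5 and 19.8 RPKM in WT. Its Kcnh2-/- libraries spanned the whole WT range, and the within-number log2 differences were -0.70 and 0.33.

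Igf2bp3 (rn6, chromosome 4, 78746546 to 78879294), the member most used as a tumour marker, was at 47.2 and 38.9 RPKM in Kcnh2-/- replicates 1 and 2, against 68.7 and 52.1 RPKM in WT replicates 1 and 2. Both Kcnh2-/- libraries were below both WT libraries. The mean was 43.0 ± 5.91 RPKM in Kcnh2-/- and 60.4 ± 11.7 RPKM in WT (SD, n = 2 each), and the log2 difference was -0.47 ± 0.28 (SE), with -0.53 and -0.41 within replicates 1 and 2. Without WT replicate 1 it was -0.28. Relative to Igf2bp1 in the same library, Igf2bp3 stood at 0.351 and 0.437 in Kcnh2-/-, against 0.694 and 0.334 in WT, so that this ratio overlapped between the groups. The summed RPKM of the family was 190 and 153 in Kcnh2-/-, against 182 and 228 in WT.

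Mex3a had the largest difference among the 8 followed genes that passed the filter. The MEX3 proteins bind RNA through KH domains and carry a RING finger, and MEX3A is known for repressing Cdx2 in human intestinal cells. Mex3a (rn6, chromosome 2, 187893367 to 187898310) was at 998 and 550 RPKM in Kcnh2-/- replicates 1 and 2, against 3021 and 1748 RPKM in WT replicates 1 and 2. The highest Kcnh2-/- library was below the lowest WT library. The mean was 774 ± 316 RPKM in Kcnh2-/- and 2384 ± 900.1 RPKM in WT (SD, n = 2 each), so the Kcnh2-/- mean was 32.5% of the WT mean. The log2 difference was -1.63 ± 0.53 (SE), with -1.60 within replicate 1 and -1.67 within replicate 2. Of all genes tested, 0.753% had a lower difference. It ranged from -2.08 after quantile normalization to -1.20 without Kcnh2-/- replicate 2.

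The level of Mex3a was far above that of its relatives. Among 18644 protein-coding genes it ranked 104 and 213 in Kcnh2-/- replicates 1 and 2, against 10 and 59 in WT replicates 1 and 2. The locus in the files spans 4944 bases, while the RefSeq gene in GRCr8 spans 9470 bases. Spans also differed for Hmga1 (2975 against 7695 bases), Igf2bp2 (155010 against 99986) and Lin28b (78180 against 99436). Whether these spans bear on the levels was not tested. The group difference of Mex3a rests on the same row in all 4 libraries. Mex3c, the widely expressed relative, was at 37.7 and 36.0 RPKM in Kcnh2-/-, against 47.7 and 30.7 RPKM in WT. Relative to Mex3c, Mex3a stood at 26.5 and 15.3 in Kcnh2-/-, against 63.3 and 56.9 in WT, with no overlap. Mex3a held 95.6% and 92.8% of the summed RPKM of the MEX3 genes (Mex3a to Mex3d) in Kcnh2-/-, against 97.9% and 97.8% in WT. Its row shares the locus with a contig-named gene that is listed at 0 in all 4 libraries. The rows of Igf2bp1, Mex3b and Hmga2 also share their locus with 1 other gene each.

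Mex3d was at 7.53 and 6.09 RPKM in Kcnh2-/-, against 13.2 and 8.50 RPKM in WT (log2 difference -0.58 ± 0.35, SE, limma adjusted p = 0.980). Mex3b (rn6, chromosome 1, 144831522 to 144835747) was at 0.572 and 0.537 RPKM in Kcnh2-/- replicates 1 and 2, against 2.97 and 0.270 RPKM in WT replicates 1 and 2. WT replicate 1 was the highest library and WT replicate 2 the lowest, so the groups overlapped.

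The HMGA genes differed from each other in level and in pattern. Hmga1 (rn6, chromosome 20, 7136006 to 7138980) was at 359 and 239 RPKM in Kcnh2-/- replicates 1 and 2, against 181 and 314 RPKM in WT replicates 1 and 2. The groups overlapped, with a log2 difference of 0.98 within replicate 1 and -0.39 within replicate 2. Hmga2 (rn6, chromosome 7, 65159943 to 65275408), a classic let-7 target, was at 0.0732 and 0.160 RPKM in Kcnh2-/- replicates 1 and 2, against 6.09 and 0.564 RPKM in WT replicates 1 and 2. Both Kcnh2-/- libraries were below both WT libraries, and WT replicate 1 alone was above 1 RPKM. The log2 difference was -1.58 with the pseudocount of 1 and -3.26 with a pseudocount of 0.1, and it was -0.49 without WT replicate 1.

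**Figure D3:**
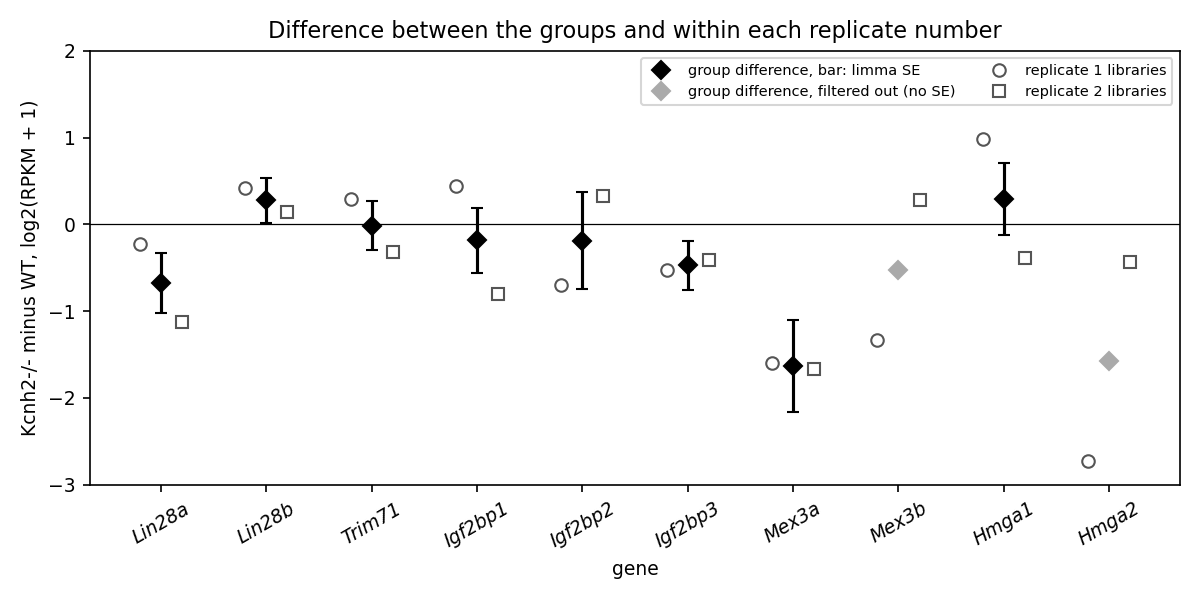
Kcnh2-/- minus WT in log2(RPKM + 1) for each gene, as the group difference (diamond, bar for the limma SE, grey without a bar for genes that did not pass the filter), within replicate 1 (open circle) and within replicate 2 (open square). Mex3a stood at -1.60 and -1.67 within the replicate numbers, while Trim71, Igf2bp1, Igf2bp2, Mex3b and Hmga1 had opposite signs in them.

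WT replicate 1, the library with the highest Mex3b and Hmga2, also had the highest differentiation markers. Summed over all 8 endoderm markers in the files, RPKM was 26.9 and 2.73 in Kcnh2-/-, against 160 and 25.0 in WT, and 6 of the 8 passed the filter. Over all 8 mesoderm and cardiac markers it was 91.7 and 18.7 in Kcnh2-/-, against 702 and 56.7 in WT, and 5 of the 8 passed. Actc1 and Tnnc1 made up most of that sum except in Kcnh2-/- replicate 2. Eomes went the other way, at 11.5 and 9.79 RPKM in Kcnh2-/-, against 8.70 and 9.05 RPKM in WT. Genes listed here as naive pluripotency markers (10 in the files of 11) summed to 398 and 996 in Kcnh2-/-, against 89.1 and 592 in WT. Most of that sum was Tdgf1 and Dppa3, so it says little of the other naive markers. Nanog and Dppa3 are listed at the same locus. The naive markers did not share a direction. Klf4, Tfcp2l1, Tbx3 and Prdm14 had log2 differences of -0.10, -0.24, -0.49 and -0.24, and the others had positive ones. Germ cell markers (all 5) summed to 126 and 124 in Kcnh2-/-, against 10.1 and 42.7 in WT. General pluripotency markers (all 5) summed to 1249 and 1877 in Kcnh2-/-, against 387 and 1415 in WT, most of it Pou5f1. They did not share a direction either. Sox2 and Sall4 had log2 differences of -0.49 and -1.02, and Pou5f1, Utf1 and Dppa4 had positive ones. Formative epiblast markers (4 in the files of 6) summed to 1178 and 633 in Kcnh2-/-, against 438 and 1039 in WT, almost all of it Dnmt3b. Early neural markers (5 in the files of 6) summed to 4.62 and 1.69 in Kcnh2-/-, against 7.99 and 2.01 in WT, most of it Nes. The most abundant markers of the other lists were Cxcr4 (endoderm), Tnnc1 (cardiac), Tdgf1 (naive) and Ddx4 (germ cell). The endoderm gene Apoa1 was listed at 0 in both Kcnh2-/- libraries, and the epiblast gene Otx2 in all 4 libraries. None of the marker genes that passed the filter was called by limma (adjusted p of 0.980 or more). Of them, 3 were at an unadjusted p under 0.05, against 3.38% of all genes tested. These were Dppa4 of the 5 general pluripotency markers tested, and Ddx4 and Sycp3 of the 5 germ cell markers tested. The other lists had 0, with 10 naive, 2 formative epiblast, 6 endoderm, 5 mesoderm and cardiac and 1 early neural gene tested. A limma fit was also run over protein-coding genes alone with the replicate number as a block, and T and Tdgf1 were not in it. It called 5 of the other tested markers, against 0.756% of all genes in that fit, namely 2 endoderm, 2 mesoderm and cardiac and 1 germ cell. It also called Mex3a. The labels tie the replicate numbers to nothing, so that block is an assumption. In that block fit Foxa2, Cxcr4, Actc1 and Tnnc1 were lower in Kcnh2-/- (limma adjusted p = 0.0237, 0.0112, 0.0125 and 0.00581). Ddx4 was higher (limma adjusted p = 0.0412). The main limma fit gave an adjusted p of 0.980 for each of the 5. The lists and this setting were chosen with earlier results of these data known, so these calls are no test of the markers. The part of these markers in the values of Mex3b, Hmga2 and the other genes was not tested.

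In order of mean level, Kcnh2-/- embryoid bodies ran Mex3a, Hmga1, Lin28a, Igf2bp1, Trim71, Igf2bp3, Lin28b, Igf2bp2, Mex3b and Hmga2. WT ran in the same order except that Hmga2 stood above Mex3b. Neighbours whose libraries overlapped in Kcnh2-/- were Lin28a with Igf2bp1 and Igf2bp3 with Lin28b. In WT they were Hmga1 with Lin28a, Igf2bp1 with Trim71, and Hmga2 with Mex3b. In RPKM, Lin28a stood above 97.1% and 94.3% of protein-coding genes in Kcnh2-/- replicates 1 and 2, against 97.8% and 97.9% in WT. Lin28b stood above 88.1% and 84.2% of them in Kcnh2-/-, against 84.7% and 83.9% in WT.

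The enzymes that make, tag and use let-7 were next compared. Of 20 such genes, 19 passed the filter, and limma called 0 of the 19, with 0 at an unadjusted p under 0.05. Of the 19, 5 were lower and 1 was higher in both Kcnh2-/- libraries than in either WT library, against 15.3% lower and 16.7% higher of all genes tested. The median log2 difference was -0.0646, against 0.00524 over all genes tested. Zcchc11, which encodes TUT4, was at 6.60 and 7.29 RPKM in Kcnh2-/-, against 10.7 and 14.1 RPKM in WT (log2 difference -0.75 ± 0.30, SE, limma adjusted p = 0.980). Drosha, the nuclear RNase that cuts primary microRNAs, was at 6.91 and 6.02 RPKM in Kcnh2-/-, against 8.46 and 17.1 RPKM in WT. Dgcr8, the partner of Drosha, was at 43.9 and 36.0 RPKM in Kcnh2-/-, against 27.5 and 26.9 RPKM in WT. Thus the subunits of that complex lay on opposite sides, and neither difference passed the limma threshold (adjusted p = 0.980 each).

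Known let-7 targets outside the 10 genes showed no called difference either. All 25 passed the filter, limma called 0 of 25, and 3 were at an unadjusted p under 0.05, against 3.38% of all genes tested. Of the 25, 8 were lower and 3 were higher in both Kcnh2-/- libraries, against 15.3% and 16.7% of all, with a median log2 difference of -0.19. The genes of smallest p were Nr6a1, Plagl2 and Igf1r. Nr6a1, an orphan nuclear receptor that represses Pou5f1, was at 9.22 and 9.50 RPKM in Kcnh2-/-, against 22.9 and 17.0 RPKM in WT (0.470 times the WT mean, limma adjusted p = 0.980). Plagl2, a zinc finger transcription factor, was at 1.53 and 1.59 RPKM in Kcnh2-/-, against 3.37 and 4.95 RPKM in WT. The growth factor receptor gene Igf1r was at 2.13 and 3.32 RPKM in Kcnh2-/-, against 6.43 and 5.81 RPKM in WT. In these 3 genes the groups did not overlap.

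Transcripts that IGF2BP proteins are known to bind gave 0 limma calls among the 8 tested of 10 listed, with 1 at an unadjusted p under 0.05 and a median log2 difference of -0.18. Of the 8, 2 were lower and 1 was higher in both Kcnh2-/- libraries, against 15.3% and 16.7% of all. The gene at that unadjusted p was Map1b, a microtubule-associated protein gene, at 8.24 and 9.84 RPKM in Kcnh2-/-, against 22.1 and 15.7 RPKM in WT. Mapk4, an atypical MAP kinase gene, was at 2.18 and 4.11 RPKM in Kcnh2-/-, against 4.26 and 7.49 RPKM in WT. Igf2, for which the family is named, was at 2.98 and 2.46 RPKM in Kcnh2-/-, against 70.2 and 2.31 RPKM in WT, so that WT replicate 1 alone was high. Igf2 falls outside the rule for named genes and was named after its values were seen.

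Among reported targets of TRIM71, MEX3A and HMGA2, limma called 0 of the 7 tested of 10, with 0 at an unadjusted p under 0.05. Of the 7, 1 was lower and 1 was higher in both Kcnh2-/- libraries, against 15.3% and 16.7% of all, with a median log2 difference of 0.0486. The genes of smallest p were Lgr5, Cdkn1a and Rbl1. Lgr5, an R-spondin receptor gene of stem cells, was at 1.20 and 0.0143 RPKM in Kcnh2-/-, against 2.35 and 0.516 RPKM in WT. The cell cycle inhibitor gene Cdkn1a, whose mRNA TRIM71 is known to repress, was at 49.9 and 146 RPKM in Kcnh2-/-, against 37.5 and 86.4 RPKM in WT. Rbl1, a retinoblastoma family gene, was at 9.89 and 7.63 RPKM in Kcnh2-/-, against 10.2 and 10.6 RPKM in WT. Cdx2 did not pass the filter, at 0.264 and 0.185 RPKM in Kcnh2-/-, against 1.68 and 0.214 RPKM in WT, and was named after its values were seen.

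Relatives of the same protein families gave 0 limma calls among 12 tested of 14 listed, with 0 at an unadjusted p under 0.05 and a median log2 difference of -0.0340. Of the 12, 3 were lower in both Kcnh2-/- libraries (Mex3d, Trim3 and Trim32) and 0 were higher, against 15.3% and 16.7% of all. Trim3, an NHL-domain relative of Trim71, was at 3.91 and 4.09 RPKM in Kcnh2-/-, against 7.22 and 5.58 RPKM in WT. Trim32 averaged 7.89 ± 1.26 RPKM in Kcnh2-/- and 9.46 ± 0.731 RPKM in WT (SD, n = 2 each), and Trim2 was at 4.34 and 1.76 RPKM in Kcnh2-/-, against 7.02 and 2.58 RPKM in WT. The cold shock domain genes Ybx1, Ybx2 and Ybx3 and the chromatin genes Hmgb1 and Hmgb2 averaged 12.97 to 394 RPKM over the 4 libraries, and in all 5 the groups overlapped.

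Other RNA-binding proteins of development gave 0 limma calls among 19 tested of 22 listed, with 0 at an unadjusted p under 0.05 and a median log2 difference of -0.0108. Of the 19, 1 was lower and 4 were higher in both Kcnh2-/- libraries, against 15.3% and 16.7% of all. Msi1, a neural stem cell regulator, was at 4.14 and 3.39 RPKM in Kcnh2-/-, against 5.95 and 9.98 RPKM in WT. The germ cell factor Dazl was at 2.39 and 6.95 RPKM in Kcnh2-/-, against 0.403 and 2.77 RPKM in WT. L1td1, a protein known in human embryonic stem cells as a partner of LIN28, was at 140 and 111.4 RPKM in Kcnh2-/-, against 59.3 and 110.8 RPKM in WT. Of other oncofetal genes, 4 of 8 were tested and limma called 0, with 0 at an unadjusted p under 0.05 and a median log2 difference of -1.04. Of the 4, 0 were lower and 1 was higher in both Kcnh2-/- libraries, against 15.3% and 16.7% of all. Sall4 was at 14.1 and 8.93 RPKM in Kcnh2-/-, against 12.6 and 43.9 RPKM in WT, Epcam at 272 and 263 RPKM in Kcnh2-/-, against 171 and 234 RPKM in WT, and Tpbg at 6.10 and 1.74 RPKM in Kcnh2-/-, against 20.1 and 3.02 RPKM in WT. Adjusted p was 0.980 or more for every tested gene of these 7 lists.

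**Figure D4:**
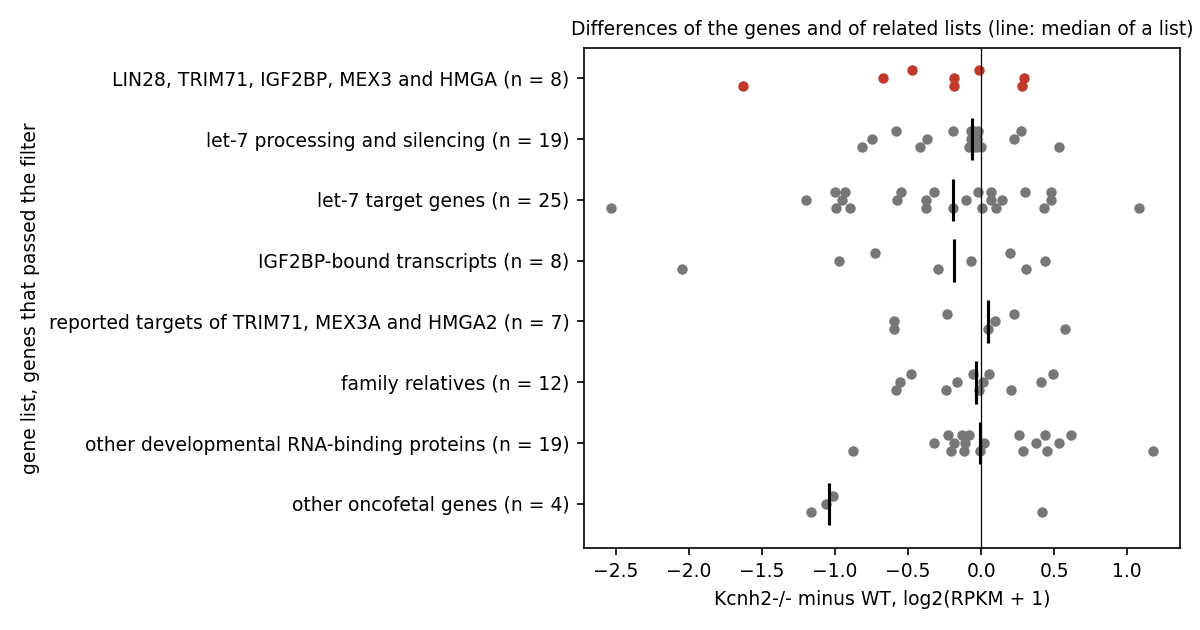
Kcnh2-/- minus WT in log2(RPKM + 1) for the 8 genes described above that passed the filter (red) and for the tested genes of 7 related lists (grey), with 1 point per gene and a line at the median of each list. The let-7 target list had a median of -0.19 over 25 genes and the let-7 processing list -0.0646 over 19, and Mex3a is the red point at -1.63.

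By pattern over the 4 libraries, measured as the summed absolute difference of centred log2(RPKM + 1) among 10850 protein-coding genes, the genes nearest to Lin28b were Zfp638 (0.0404), Sart1 (0.0421) and Dbt (0.0553). Those nearest to Lin28a were Npl (0.204), Tp53bp1 (0.229) and Ciz1 (0.2502). Over 4 libraries many genes can lie close by such a measure. Zfp638, for example, was at 53.6 and 43.1 RPKM in Kcnh2-/-, against 40.7 and 39.2 RPKM in WT.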

How the data were processed

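RNA-seq libraries of day 4 rat embryoid bodies were rRNA-depleted and strand-marked, per the labels' protocols. The submitters' processing notes name TopHat2 2.0.13, Cufflinks 2.2.1 and the build rn6, and no annotation. The authors deposited RPKM per gene, 1 table per library, with a locus. Kcnh2-/- and WT (2 libraries each) were compared with limma 3.58.1 in R 4.3.3 (trend, two-sided) on log2(RPKM + 1), a scale that understates changes of low genes, over genes that reached 1 RPKM in 2 or more libraries, with Benjamini-Hochberg adjustment. The fit was tested on simulated data with independent noise of the same size in every gene. That setting held no shared effect of the replicate number, so it cannot show how the fit behaves under such an effect. With 2 samples a group, the smallest exact permutation p is 0.333. Protein-coding genes were taken by symbol or synonym from a RefSeq table (GRCr8). Sequences were matched by symbol. The 10 genes, the lists and the 14 alternatives were chosen with earlier results of these data known. Named are the 10 genes, the 3 genes of smallest p per list, family relatives averaging 5 RPKM or more, and the 3 genes nearest to Lin28a and Lin28b, and of each marker list its most abundant tested gene; 2 genes that this rule names are not reported here. Plots were drawn with matplotlib 3.10.9 in Python 3.11.15; tables used numpy 2.4.6 and pandas 2.3.3.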

Additional observations from a re-analysis of the deposited data

How the results depend on the processing

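In all, 14 alternatives were run. Lin28a, Igf2bp3, Mex3a and Hmga2 were lower and Lin28b was higher in Kcnh2-/- in all 14. Trim71, Igf2bp1, Igf2bp2, Mex3b and Hmga1 changed sign in at least 1, each time with a library left out. Several alternatives change only the genes tested or the variance model, so they leave these differences as they are. The genes that kept their direction were those whose groups did not overlap. In them, leaving out a library or changing the pseudocount could not change the sign. Their agreement over the settings was thus largely fixed in advance. Genes called higher by limma numbered 4 as reported, 7 with a pseudocount of 0.1, 1 with median-of-ratios scaling, 8 with quantile normalization, and 0 with a pseudocount of 5, without the filter, without the mean-variance trend or over protein-coding genes alone. Genes called lower numbered 10 as reported, 1 without the filter, and 3 with a pseudocount of 5, without the trend or over protein-coding genes alone. With a library left out, calls ranged from 0 to 9 higher (9 without either Kcnh2-/- library, 0 without either WT library) and from 3 (without Kcnh2-/- replicate 1) to 10 lower. The causes were not tested. Of the 10 genes followed, the count higher in both Kcnh2-/- libraries was 1 as reported, 0 after quantile normalization and 2 to 3 with a library left out. The count lower was 4 as reported and 5 to 6 with a library left out, where fewer libraries have to be separated.

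Same-numbered libraries deviated together (r = 0.38 across all 12355 genes tested and 0.58 across the 10850 protein-coding ones, which are not independent), but the labels tie the numbers to nothing, so the numbers are not taken as pairs. With the number as a replicate block the calls were 14 higher and 14 lower (0.227% of genes), and 57 and 25 (0.756%) with the block over protein-coding genes alone. Of the 10 genes, the block gave 0 calls. The block over protein-coding genes gave 1, Mex3a, which is no test of a gene chosen with values of this contrast known. That last setting also called Ccnd2 among the let-7 targets (limma adjusted p = 0.0337) and the markers Foxa2, Cxcr4, Actc1, Tnnc1 and Ddx4. Those lists and that setting were likewise chosen with earlier results known, so these calls are no test either. Absolute depth is unknown, so no interval from counts can be given for the low values of Mex3b and Hmga2.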
